A study of Mus musculus with 8 samples.

Results

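The 10 genes described here encode the T cell receptor, its signalling chains, the CD4 and CD8 co-receptors and the regulatory T cell factor Foxp3. They were taken by gene name from the deposited count table of mouse pancreatic tumours: Cd3d, Cd3e, Cd3g, Cd4, Cd8a, Cd8b1, Trac, Trbc1, Trbc2 and Foxp3. All 10 were found on 1 row each, among 54532 genes. The tumours had been grown in the pancreas of C57BL/6 mice from 1 cell line, KPC, derived from mouse pancreatic ductal adenocarcinoma. For 2 weeks the mice received TLQP21, which is a fragment of the neurosecretory protein VGF, or Saline, and each group has 4 libraries. The submitters describe slower tumour growth under the peptide. All mice carried the graft, so there was no tumour-free group. The labels do not state the age or sex of the mice, the peptide dose, or whether each library came from a separate mouse. The p-values therefore measure the spread between these libraries, which may be partly technical.

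A T cell recognises peptides on other cells through its receptor, a pair of variable chains whose constant parts are encoded by Trac for the alpha chain and by Trbc1 or Trbc2 for the beta chain. The receptor pair cannot signal by itself, and the CD3 chains and the zeta chain (Cd247) carry the signal into the cell. CD4 marks helper and regulatory T cells and binds MHC class II, whereas CD8, built from alpha and beta chains, marks cytotoxic T cells and binds MHC class I. Foxp3 is the transcription factor that defines regulatory T cells, which restrain other T cells in pancreatic tumours and elsewhere. In mice, Cd8a is also expressed by a subset of dendritic cells, and Cd4 has been found on some dendritic cells.

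Summed gene counts ran from 29.03 to 33.5 M in TLQP21 and from 28.4 to 29.0 M in Saline, and each member had between 37 and 719 reads in every library. Levels are CPM, read counts scaled to a common library total, after trimmed-mean (TMM) scaling. Although the labels name pancreatic cancer cells, whole tumours were sequenced. The ductal keratin Krt19 was at 1148 ± 128 CPM in TLQP21 and 1021 ± 58.2 CPM in Saline (SD, n = 4 each), and the epithelial adhesion gene Epcam at 712 ± 31.7 and 687 ± 113 CPM in the same order. Libraries 1 and 2 of each group had Xist and libraries 3 and 4 had Y-linked transcripts, a split the labels do not mention. Saline 2 held 0.5% of its counts in hepatocyte genes, against at most 0.00104% in the other libraries, and Saline 4 held 5.86% in acinar genes, the highest share. In bulk tumours, fewer T cells and less RNA per T cell cannot be told apart.

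T cell receptor and CD3 transcripts were sparse in both groups, and no difference between TLQP21 and Saline passed the test for any of the 10 genes. None of the 10 genes passed the threshold of an adjusted p of 0.05 in edgeR's quasi-likelihood test, adjusted over all 18238 genes tested (adjusted p = 0.9999 for each). No gene of the whole table passed either (0% higher and 0% lower), and 558 had an unadjusted p under 0.05. DESeq2 called 4 genes and limma's voom 1, none of them a member. Of the 10 members, 4 had a log2 fold change below 0 (49.4% of all genes did) and 6 above 0 (50.6%). Their median was 0.02, and the median over all genes was 0.00. One member, Cd4, had an unadjusted p under 0.05 in the lower direction (2.26% of all genes did), and 0 members in the higher direction (0.795%). For 1 other, Trbc1, every TLQP21 library lay below every Saline library with TMM scaling (0.844% of all genes), though not by library totals, and for 0 members above (0.811%), which makes 1.66% of all genes without overlap in either direction. For 8 of the 10, all but Cd4 and Foxp3, the 95% interval stayed inside a 2-fold change either way, as it did for 79.6% of all genes.

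**Figure D1:**
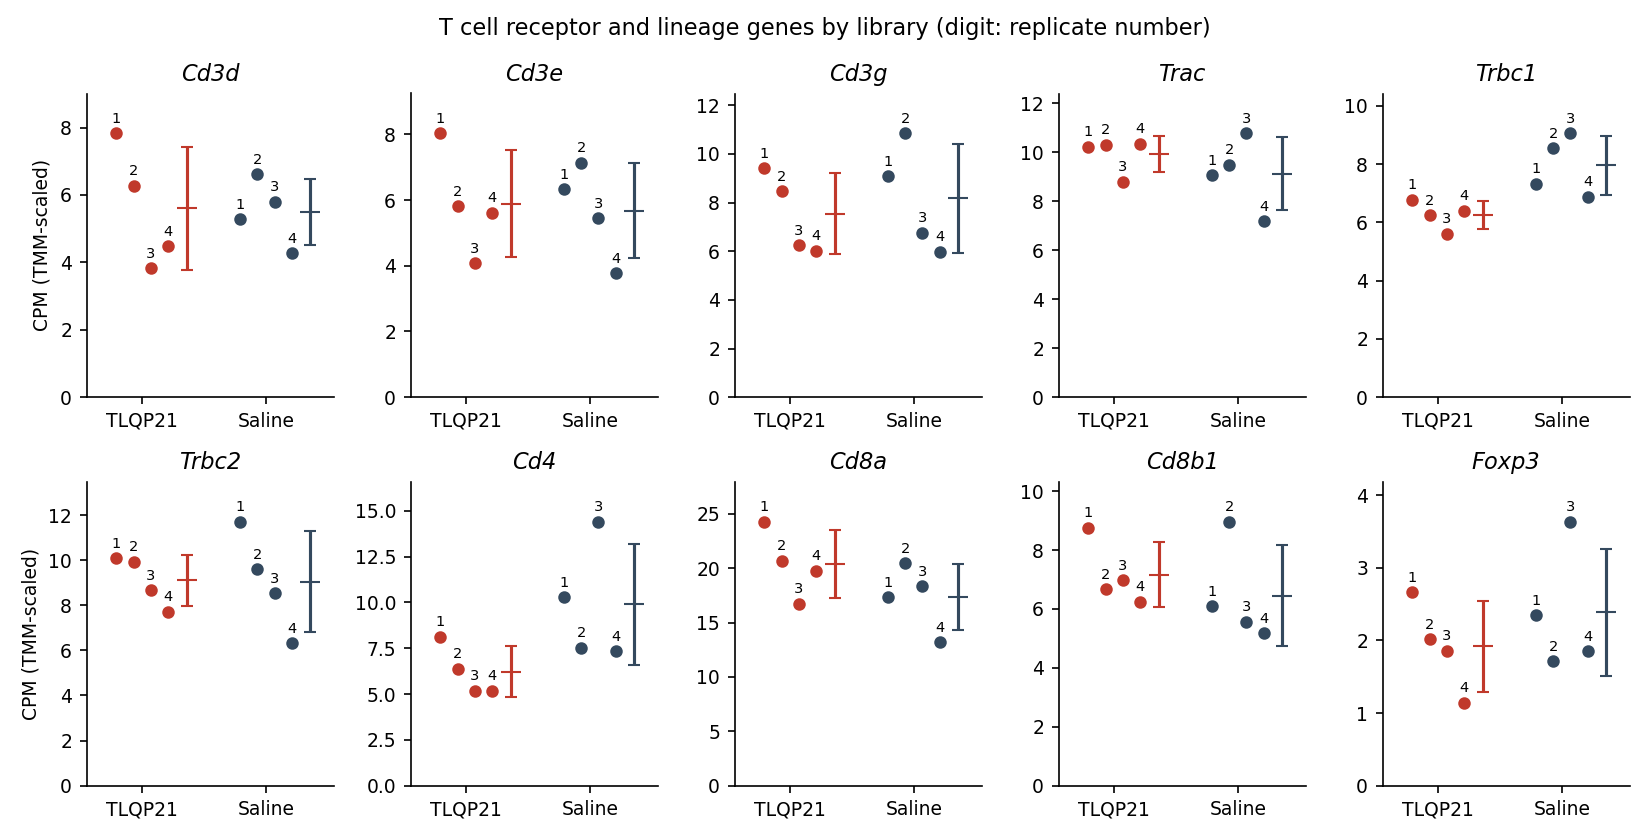
Level of each of the 10 genes in CPM (TMM-scaled, y axis from 0) in the 4 TLQP21 and the 4 Saline libraries. Points are libraries with their replicate number, and bars are the mean ± SD of 4. Trbc1 is the gene whose groups do not overlap with this scaling. Cd4 and Foxp3 are highest in Saline 3.

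The CD3 chains differed little between treatments, by less than the spread between libraries. Cd3d, the delta chain, was at 7.83, 6.28, 3.82 and 4.48 CPM in TLQP21 libraries 1 to 4, against 5.28, 6.62, 5.80 and 4.27 CPM in Saline libraries 1 to 4. Cd3e, the epsilon chain, which pairs with either of the others, was at 8.04, 5.82, 4.08 and 5.62 CPM in TLQP21, against 6.33, 7.14, 5.46 and 3.78 CPM in Saline. Cd3g, the gamma chain, was at 9.41, 8.46, 6.24 and 6.02 CPM in TLQP21, against 9.09, 10.9, 6.76 and 5.98 CPM in Saline. TLQP21 1 was the highest library for Cd3d and Cd3e and Saline 2 for Cd3g, and the groups overlapped widely for all 3. The log2 fold changes were 0.03 for Cd3d (95% interval -0.54 to 0.59), 0.05 for Cd3e (-0.52 to 0.63) and -0.12 for Cd3g (-0.64 to 0.41). The intervals reach 1.51-fold for Cd3d and 1.54-fold for Cd3e, so increases up to these sizes lie within the error. The sign for Cd3d turned under a fit with the replicate number as a block (-0.0080), and the signs of all 3 turned when single libraries were left out.

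The 3 genes lie together on chromosome 9 of GRCm38, Cd3g (ENSMUSG00000002033) from 44969572 to 44980431 on the minus strand, Cd3d (ENSMUSG00000032094) from 44981786 to 44987339 on the plus strand and Cd3e (ENSMUSG00000032093) from 44998740 to 45009627 on the minus strand. Cd3g and Cd3d are thus transcribed away from each other, with 1354 bases between them. The 3 chains followed close courses over the libraries, and the 250 bases before each RefSeq start (GRCm38.p6) are shown 5′ to 3′, with GGAA and its reverse complement TTCC, the core recognised by ETS factors, in capitals.
Cd3g (chr9:44980432-44980681, minus strand): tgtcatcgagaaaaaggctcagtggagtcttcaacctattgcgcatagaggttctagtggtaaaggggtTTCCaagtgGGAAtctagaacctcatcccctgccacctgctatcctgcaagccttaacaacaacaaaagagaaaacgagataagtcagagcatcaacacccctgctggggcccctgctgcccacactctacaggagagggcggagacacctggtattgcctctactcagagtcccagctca
Cd3d (chr9:44981536-44981785, plus strand): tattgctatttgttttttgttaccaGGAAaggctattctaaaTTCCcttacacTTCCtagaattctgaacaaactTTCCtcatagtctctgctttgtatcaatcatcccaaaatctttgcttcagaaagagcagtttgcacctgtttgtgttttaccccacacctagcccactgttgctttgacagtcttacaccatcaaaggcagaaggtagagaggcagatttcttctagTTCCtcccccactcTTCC
Cd3e (chr9:45009612-45009861, minus strand): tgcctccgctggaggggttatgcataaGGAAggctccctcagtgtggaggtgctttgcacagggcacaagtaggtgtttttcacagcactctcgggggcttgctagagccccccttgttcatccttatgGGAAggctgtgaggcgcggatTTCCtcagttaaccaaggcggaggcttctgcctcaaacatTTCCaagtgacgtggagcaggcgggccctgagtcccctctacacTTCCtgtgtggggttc
GGAA was matched on both strands 2 times before Cd3g, 6 times before Cd3d and 5 times before Cd3e, and it is found in 93.4% of 32536 distinct windows of this length before annotated starts. The TATA box TATAAA was found in none of the 3 windows and in 12.3% of all windows. These matches describe letters and not binding. Cd3e shares 135 exon bases with the antisense gene Gm48719, which had 34 reads over the 8 libraries.

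Of the constant-region genes, Trac and Trbc2 overlapped between groups, and Trbc1 did so or not depending on the scaling. Trac (ENSMUSG00000076928, chromosome 14 from 54220521 to 54224206) had the narrowest range of the 10 genes over the 8 libraries on the log2 scale (0.58). It was at 10.2, 10.3, 8.80 and 10.3 CPM in TLQP21, against 9.05, 9.49, 10.8 and 7.19 CPM in Saline, and the groups overlapped (log2 fold change 0.12, 95% interval -0.23 to 0.47). Trbc2 (ENSMUSG00000076498) was at 10.1, 9.93, 8.67 and 7.72 CPM in TLQP21, against 11.7, 9.59, 8.55 and 6.32 CPM in Saline, again overlapping (0.01, -0.44 to 0.46). Trbc1 (ENSMUSG00000076490), the other beta constant gene, was at 6.77, 6.25, 5.61 and 6.39 CPM in TLQP21, against 7.32, 8.54, 9.06 and 6.88 CPM in Saline. With this scaling every TLQP21 library lay below every Saline library, the nearest pair being TLQP21 1 and Saline 4. By library totals alone the groups overlapped, with Saline 4 at 6.42 CPM, below TLQP21 1 at 6.82 and TLQP21 2 at 6.47 CPM. The log2 fold change of Trbc1 was -0.35 (95% interval -0.69 to 0.00, SE 0.16, n = 4 each), and edgeR's quasi-likelihood test gave an unadjusted p of 0.0505, rank 565 of 18238.

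Reads of Trbc1 and Trbc2 can be hard to assign. The genes lie 6848 bases apart on chromosome 6, Trbc1 from 41538218 to 41539881 and Trbc2 from 41546730 to 41548352, both on the plus strand. Over 518 annotated coding bases they are 95.6% identical, with 23 differing bases. The first 259 bases have no difference, and 22 of the 23 lie in coding bases 379 to 518, which are shown 5′ to 3′ from the GENCODE M21 transcripts with the differing bases in capitals.
Trbc1: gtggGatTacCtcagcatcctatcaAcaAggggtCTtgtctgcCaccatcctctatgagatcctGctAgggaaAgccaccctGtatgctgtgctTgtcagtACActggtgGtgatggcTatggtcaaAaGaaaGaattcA
Trbc2: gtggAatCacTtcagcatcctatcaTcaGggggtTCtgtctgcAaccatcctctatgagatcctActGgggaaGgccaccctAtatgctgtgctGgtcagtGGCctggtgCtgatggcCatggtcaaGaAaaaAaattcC
Of 588 windows of 150 bases, the length of a read, along the longest Trbc1 transcript, 110 (18.7%) were found unchanged in the Trbc2 transcript. This share is for 1 read alone. Fragments were read from both ends, and the other read of a pair was not considered, so fewer pairs may be ambiguous. How reads with more than 1 match were counted is not stated, so the split between the 2 genes is uncertain. The count ratio of Trbc1 to Trbc2 was 0.671, 0.629, 0.648 and 0.828 in TLQP21, against 0.625, 0.891, 1.06 and 1.09 in Saline, with Saline 1 below all TLQP21 libraries and the other 3 above them (exact two-sided permutation p = 0.143, 0.190 adjusted over 8 ratios).

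Of the co-receptors, Cd4 lay lower and the CD8 chains slightly higher in TLQP21, without passing the threshold. Cd4 (ENSMUSG00000023274, chromosome 6 from 124864692 to 124888221) was at 8.14, 6.39, 5.18 and 5.19 CPM in TLQP21, against 10.3, 7.53, 14.4 and 7.34 CPM in Saline. Saline 3 was the highest library and TLQP21 3 and 4 the lowest, while TLQP21 1 lay above Saline 2 and 4, so the groups overlapped. The log2 fold change was -0.67 (95% interval -1.24 to -0.10, SE 0.25, n = 4 each), with an unadjusted p of 0.0256 in edgeR's quasi-likelihood test. Without Saline 3 it was -0.43. Without Saline 2, which had the highest hepatocyte share, it was -0.78, and without Saline 4, which had the highest acinar share, -0.79.

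Cd8a (ENSMUSG00000053977), the alpha chain, was at 24.3, 20.7, 16.7 and 19.8 CPM in TLQP21, against 17.4, 20.5, 18.4 and 13.2 CPM in Saline. Cd8b1 (ENSMUSG00000053044), the beta chain, which is more restricted to T cells, was at 8.76, 6.68, 6.97 and 6.24 CPM in TLQP21, against 6.09, 8.96, 5.56 and 5.18 CPM in Saline. TLQP21 1 and Saline 2 were high for both chains and Saline 4 was the lowest for both, and the groups overlapped. The log2 fold changes were 0.23 for Cd8a (95% interval -0.13 to 0.59) and 0.15 for Cd8b1 (-0.32 to 0.62). Single libraries moved both, to 0.12 for Cd8a without Saline 4, and to 0.0397 without TLQP21 1 or 0.35 without Saline 2 for Cd8b1. The 2 CD8 genes neighbour each other on chromosome 6, Cd8b1 from 71322788 to 71337494 and Cd8a from 71373427 to 71379173.

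Foxp3 (ENSMUSG00000039521, chromosome X from 7579676 to 7595243) was the least abundant of the 10, with 37 to 78 reads per library in TLQP21 and 49 to 106 in Saline. It was at 2.67, 2.02, 1.86 and 1.14 CPM in TLQP21, against 2.35, 1.72, 3.64 and 1.85 CPM in Saline. Saline 3 was highest and TLQP21 4 lowest, and the other 6 libraries were intermixed. The log2 fold change was -0.32 (95% interval -1.04 to 0.41), and without Saline 3 it was -0.0388. In GENCODE M21, Foxp3 exons share bases with Ppp1r3f, Flicr, Gm36995 and Ccdc22, the last of which is listed at 0 reads in all 8 libraries, so the Foxp3 counts are uncertain.

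**Figure D2:**
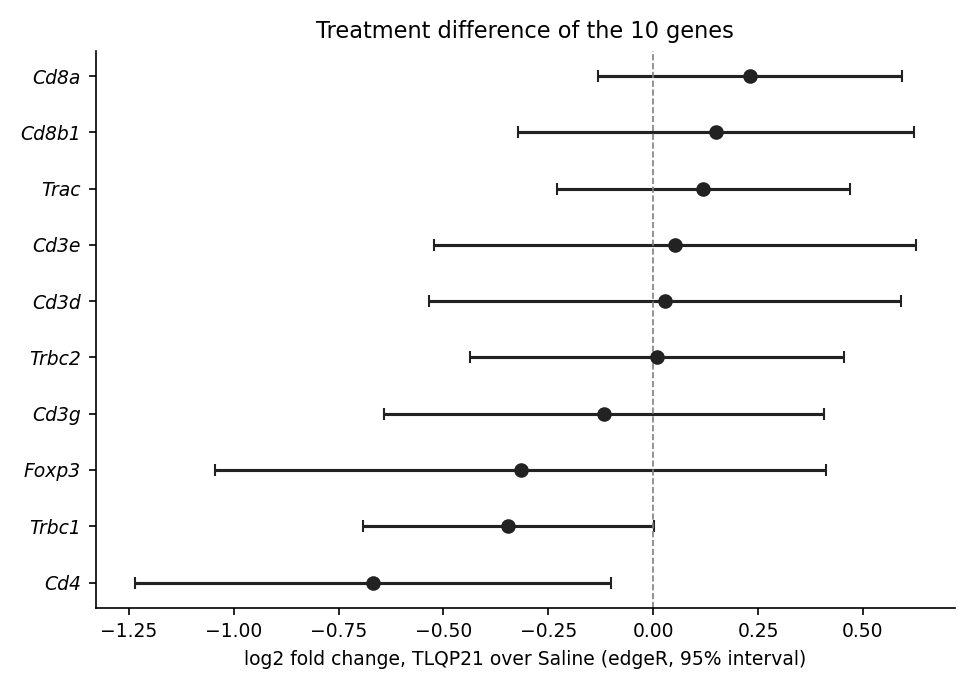
Log2 fold change of TLQP21 over Saline (x axis) for each of the 10 genes, with the 95% interval of edgeR's quasi-likelihood fit over 8 libraries. Cd4 is the gene whose interval leaves out 0, from -1.24 to -0.10, before adjustment over all genes.

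Set against each other within a library, which removes the scaling, the co-receptors Cd8a and Cd4 were the 1 pair of 8 without overlap between treatments. The count ratio of Cd8a to Cd4 was 2.98, 3.24, 3.23 and 3.81 in TLQP21 libraries 1 to 4, against 1.69, 2.72, 1.27 and 1.80 in Saline libraries 1 to 4. It averaged 3.32 ± 0.350 in TLQP21 and 1.87 ± 0.610 in Saline (SD, n = 4 each), and every TLQP21 library lay above every Saline library. The difference of the mean log2 ratios was 0.87, a 1.83-fold higher ratio (exact two-sided permutation p = 0.0286, the smallest that 70 assignments can give). Adjusted over the 8 ratios computed, p was 0.190, so it did not pass the correction. Without Saline 2 the difference was 1.07 and without Saline 3 it was 0.71. With Cd8b1 in place of Cd8a, a choice made after seeing the data, the ratio to Cd4 ran from 1.05 to 1.35 in TLQP21 and from 0.386 to 1.19 in Saline, with Saline 2 within the TLQP21 range (exact permutation p = 0.0857).

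The remaining ratios overlapped between groups. Cd4 to Cd3e was 1.01, 1.10, 1.27 and 0.923 in TLQP21, against 1.62, 1.05, 2.64 and 1.94 in Saline (exact two-sided permutation p = 0.0857, 0.190 adjusted). Saline 2 lay among the TLQP21 libraries and the other 3 Saline libraries above all of them. Cd8a to Cd3e ranged over 3.02 to 4.10 in TLQP21 and 2.74 to 3.49 in Saline (exact permutation p = 0.143). Foxp3 to Cd4, a rough measure of the regulatory part of CD4 transcripts, was 0.328, 0.315, 0.359 and 0.220 in TLQP21, against 0.228, 0.228, 0.252 and 0.253 in Saline (exact permutation p = 0.143). The Saline libraries lay close together, and TLQP21 4 fell below them while the other 3 TLQP21 libraries lay above. Foxp3 to Cd3e ranged over 0.203 to 0.455 in TLQP21 and 0.240 to 0.667 in Saline (exact permutation p = 0.343), and Cd8b1 to Cd8a over 0.316 to 0.417 and 0.303 to 0.438 in the same order (exact permutation p = 0.686).

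**Figure D3:**
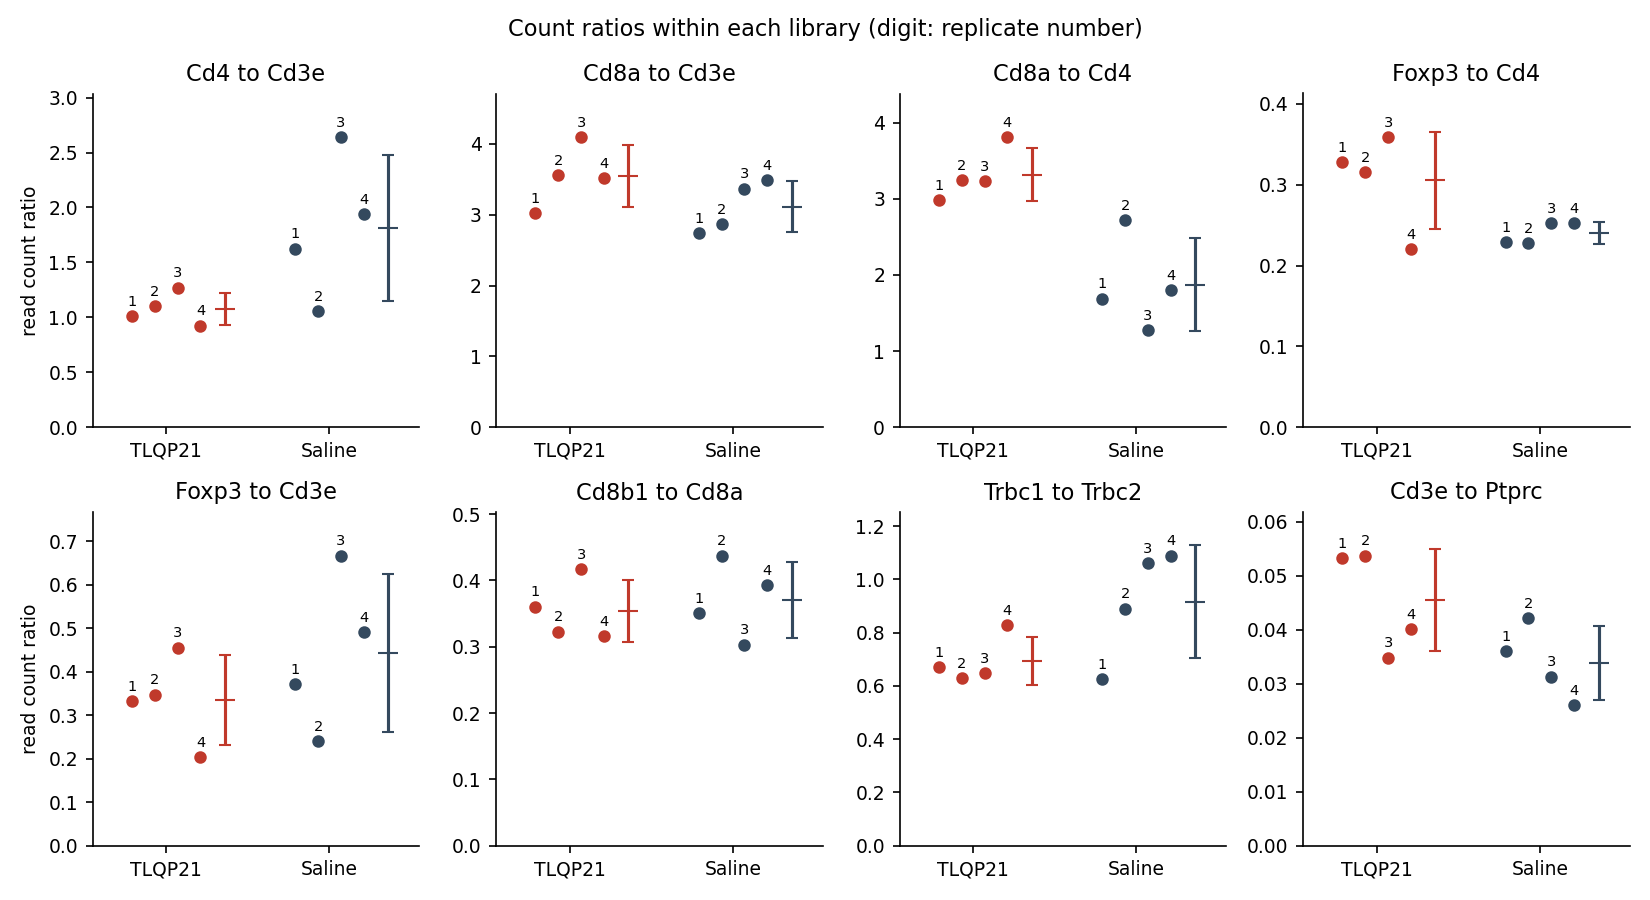
Ratio of read counts within each library for the 8 gene pairs (y axis from 0, no unit), with TLQP21 left of Saline. Points are libraries with their replicate number, and bars are the mean ± SD of 4. Cd8a to Cd4 is the pair without overlap, at 2.98 to 3.81 in TLQP21 and 1.27 to 2.72 in Saline.

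Along the split by sex-linked transcripts, the CD3 chains lay lower in the libraries with Y-linked transcripts, without passing the threshold. All 10 members had a log2 fold change below 0 in libraries with Y-linked transcripts against those with Xist (47.8% of all genes did), and 4, Cd3d, Cd3e, Cd3g and Trbc2, had an unadjusted p under 0.05 (6.52% of all genes, lower). None passed the threshold in edgeR with treatment as a covariate (smallest adjusted p = 0.137), while 0.373% of all genes did. Cd3g ran from 5.98 to 6.76 CPM in the 4 libraries with Y-linked transcripts and from 8.46 to 10.9 CPM in the 4 with Xist, without overlap (log2 fold change -0.59, SE 0.14). In the same order, Cd3e (3.78 to 5.62 against 5.82 to 8.04 CPM) and Trbc2 (6.32 to 8.67 against 9.59 to 11.7 CPM) did not overlap either. The share of all genes without overlap along this split was not computed. Cd3e differed by -0.53 and Cd3d by -0.50, whereas Cd4 differed by -0.09 and Trac by -0.07. Of other T cell lists, 19 of 22 proximal signalling genes lay below 0 (median -0.26), 9 of 15 pan-T genes (-0.02) and 5 of 13 regulatory companions (0.03). Markers of other cells also varied along this split. All 8 pan-leukocyte genes lay below 0, with a summed level from 531 to 758 CPM in the libraries with Y-linked transcripts and from 596 to 790.1 CPM in those with Xist, as did 6 of 8 macrophage genes, with a sum from 1181 to 1719.5 CPM in the libraries with Y-linked transcripts and from 1494 to 1940.0 CPM in those with Xist. Of conventional dendritic cell genes 3 of 8 lay below 0, with a sum from 87.1 to 128 CPM in the libraries with Y-linked transcripts and from 123 to 145 CPM in those with Xist, and of natural killer genes 4 of 7, with a sum from 9.12 to 12.5 CPM in the libraries with Y-linked transcripts and from 8.45 to 9.39 CPM in those with Xist. Lower at an unadjusted p under 0.05 (6.52% of all genes) were 2 of 8 macrophage, 1 of 8 pan-leukocyte and 1 of 8 conventional dendritic cell genes. So were 2 of 7 natural killer genes, 1 of 3 lymph node genes and the 1 thymocyte gene tested, against 0 of 8 B cell genes. Higher at that level were 2 of 13 regulatory T cell companions, among them Ctla4 (1.10), 1 of 7 gamma delta T cell genes and 1 of 7 natural killer genes. The share of all genes higher at that level along this split was not computed, so these counts have no background beside them. Of the pan-leukocyte genes, 1 passed the adjusted threshold along the split. The part of other cells in the CD3 difference was not tested.

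Within these 2 kinds, with 2 libraries of each treatment, the treatment difference in log2 CPM of Cd4 was -0.98 in the libraries with Y-linked transcripts and -0.28 in those with Xist. That of Foxp3 was -0.81 in the libraries with Y-linked transcripts and 0.20 in those with Xist, of opposite sign. That of Cd3d was -0.26 in the libraries with Y-linked transcripts and 0.24 in those with Xist, and that of Trbc1 was -0.40 in the libraries with Y-linked transcripts and -0.28 in those with Xist. The log2 ratio of Cd8a to Cd4 differed by 1.21 in the libraries with Y-linked transcripts and by 0.54 in those with Xist, both above 0, as groups without overlap must be in any split. No member passed the test of an unequal treatment difference between the kinds in edgeR (smallest adjusted p = 0.842), and 0% of all genes did. At an unadjusted p under 0.05 it gave 0 members and 4.8% of all genes.

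Cd4 and Foxp3 followed another course over the 8 libraries than the CD3 and CD8 genes. Likeness was measured as the root-mean-square difference (RMS) of log2 CPM after each gene's mean was taken off, as a description over 8 libraries that share their depth and scaling. The pairs Cd8a and Trac (0.14), Cd3d and Cd3e (0.17), Cd3e and Cd8a (0.18) and Cd8a and Cd8b1 (0.18) were the closest. Cd4 and Foxp3 were closer to each other (0.25) than to any CD3 or CD8 gene (0.41 to 0.58). Neither was the other's nearest gene, as Foxp3 ranked 10 from Cd4 and Cd4 ranked 42 from Foxp3 among 18237 genes. Trbc1 lay between, at 0.31 from Cd4. Saline 4 was the lowest of the 8 libraries for 6 members and TLQP21 1 the highest for 3. Saline 3 was the highest for 4, namely Cd4, Foxp3, Trac and Trbc1.

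**Figure D4:**
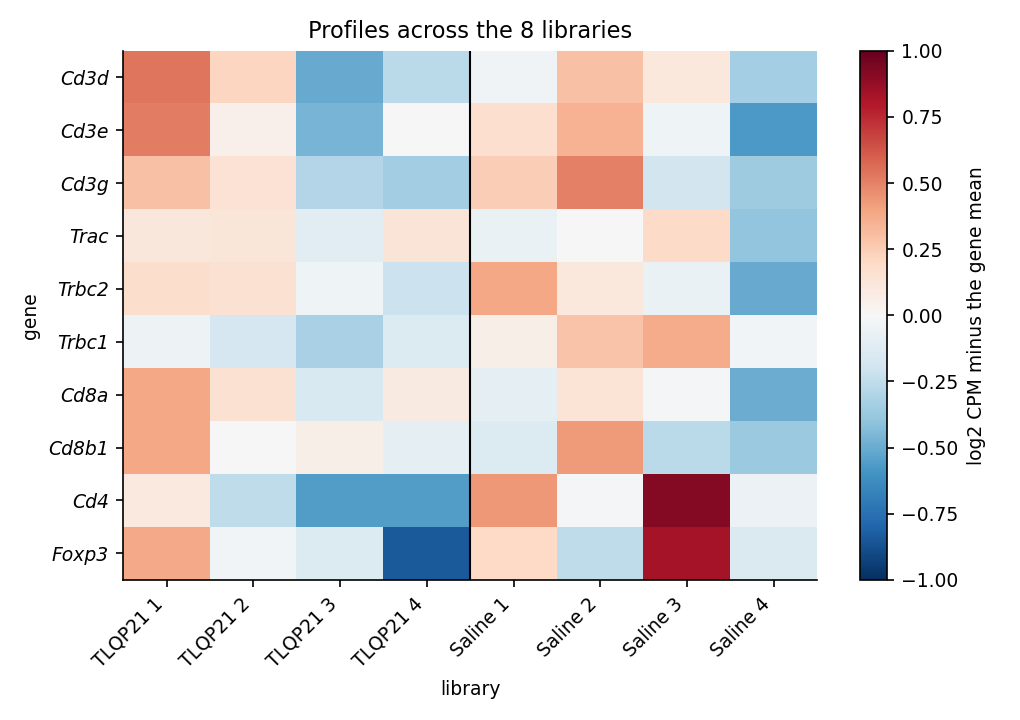
Log2 CPM minus the gene's mean over 8 libraries (colour) for the 10 genes (rows) in the TLQP21 libraries, left of the line, and the Saline libraries. Cd4 and Foxp3 are highest in Saline 3 and low in TLQP21 4, while the CD3 and CD8 genes are highest in TLQP21 1 or Saline 2, and low in Saline 4.

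Among 18237 other tested genes, the closest to Cd4 was Cd6 (RMS 0.16), a surface receptor of T cells, followed by Gimap3 (0.20), a GTPase of lymphocytes, Gm13034 (0.20), Gm32633 (0.22) and the T cell kinase gene Txk (0.22). Cd6 was at 5.68, 4.23, 4.08 and 3.64 CPM in TLQP21, against 6.19, 5.53, 7.82 and 4.99 CPM in Saline, highest in Saline 3 as Cd4 was. The closest to Foxp3 were Ceacam16 (0.16), A530013C23Rik (0.17), Gm3776 (0.17), Gm32633 (0.19) and the adhesion receptor gene Adgrg5 (0.19). The closest to the mean course of Cd3d, Cd3e and Cd3g were Fcgr1 (0.09), an Fc receptor of myeloid cells, Raet1d (0.10), Slc9a2 (0.10), Ak7 (0.12) and the myeloid protease gene Ctss (0.12). The median over all genes searched was 0.52 from Cd4, 0.51 from Foxp3 and 0.40 from the CD3 mean.

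Per kilobase of gene length the constant regions were the most abundant. The order over all 8 libraries was Trbc2 at 13.1 ± 2.37 CPM per kilobase (SD, n = 8), Trac at 10.2 ± 1.25, Trbc1 at 9.48 ± 1.56, Cd8a at 5.19 ± 0.902, Cd8b1 at 4.59 ± 0.938, Cd3d at 3.06 ± 0.745, Cd3g at 2.40 ± 0.566, Cd4 at 2.00 ± 0.758, Cd3e at 1.42 ± 0.350 and Foxp3 at 0.540 ± 0.187. Ranges did not overlap between Trbc1 and Cd8a or between Cd3e and Foxp3, and all other neighbours in this order overlapped. Trac and Trbc1 stood in this order in 4 of 8 libraries, Cd8a and Cd8b1 in 6, and Cd3g and Cd4 as well as Cd4 and Cd3e in 7. The lengths are those of the deposited table, and for every member other than Foxp3 they equal the merged exon length in GENCODE M21.

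The genes that carry the receptor's signal into the cell leaned below 0. Of 22 tested genes of proximal receptor signalling, 20 had a log2 fold change below 0 (49.4% of all genes did), with a median of -0.22. None passed the threshold, and 2 were lower and 0 higher at an unadjusted p under 0.05 (2.26% and 0.795% of all genes). Trat1, an adaptor that associates with the receptor, was at 0.479, 0.317, 0.432 and 0.401 CPM in TLQP21, against 1.29, 1.02, 1.27 and 0.530 CPM in Saline, without overlap (log2 fold change -1.33, SE 0.34). Lcp2, the adaptor SLP-76, which myeloid cells also express, was at 28.7 ± 6.63 CPM in TLQP21 and 38.3 ± 4.07 CPM in Saline (SD, n = 4 each). The zeta chain gene Cd247 differed by -0.53, Txk by -0.58 and the exchange factor gene Rasgrp1 by -0.28 on the log2 scale. The kinase genes Lck (-0.20) and Zap70 (-0.31), named here for their place in the pathway after their values were seen, also lay below 0.

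Of 15 tested pan-T surface and transcription factor genes, 10 lay below 0, with a median of -0.20, and 3 were lower and 0 higher at an unadjusted p under 0.05. Of all genes, 49.4% lay below 0, 2.26% were lower and 0.795% higher at that level. Runx3, a factor of CD8 and natural killer cells, was at 15.7, 11.5, 11.6 and 11.5 CPM in TLQP21, against 17.6, 16.4, 17.4 and 21.5 CPM in Saline, without overlap (log2 fold change -0.54, SE 0.15). The interleukin-7 receptor gene Il7r differed by -0.42 and Cd6 by -0.48. In the other direction lay Tcf7, a factor of naive and memory T cells, at 28.7 ± 1.44 CPM in TLQP21 and 24.7 ± 2.94 CPM in Saline, and Thy1, which stromal cells also express, with 0.22. None passed the threshold.

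Genes that accompany Foxp3 in regulatory T cells lay below 0 in 11 of 13 tested cases, with a median of -0.23, and 1 was lower at an unadjusted p under 0.05, against 49.4% and 2.26% of all genes. That gene, Il2ra, the alpha chain of the interleukin-2 receptor, was at 4.86, 3.02, 1.83 and 2.59 CPM in TLQP21, against 4.59, 5.32, 5.29 and 5.03 CPM in Saline. TLQP21 1 reached the level of the Saline libraries and the other 3 TLQP21 libraries lay below all of them. The inhibitory receptor gene Ctla4 was at 5.24 ± 2.00 CPM in TLQP21 and 9.59 ± 7.67 CPM in Saline (SD, n = 4 each), with a Saline range of 3.99 to 20.8. Tnfrsf4 differed by -0.59, Icos by -0.34 and Ikzf2 by -0.25 on the log2 scale. None of the 13 passed the threshold.

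Markers of other blood cells were read from the same libraries. All 8 pan-leukocyte genes lay below 0 (49.4% of all genes did), with a median of -0.33. Of these, 2 were lower at an unadjusted p under 0.05 (2.26% of all genes), Ptprc and Rac2. Ptprc, which encodes CD45, was at 151, 108, 117 and 140.3 CPM in TLQP21, against 176, 169.7, 174 and 145 CPM in Saline. The count ratio of Cd3e to Ptprc averaged 0.0454 ± 0.00949 in TLQP21 and 0.0339 ± 0.00685 in Saline, with overlap (log2 difference 0.42, exact two-sided permutation p = 0.143, 0.190 adjusted over 8 ratios, n = 4 each). Of 8 macrophage genes, 7 lay below 0, with 2 lower at an unadjusted p under 0.05 (2.26% of all genes), Adgre1 (-0.47) and the clearance receptor gene Mertk (-0.40). Adgre1 ran from 78.4 to 107 CPM in TLQP21 and from 122 to 136 CPM in Saline, without overlap (0.844% of all genes, lower). The summed level of the 8 genes overlapped, from 1181 to 1940.0 CPM in TLQP21 and from 1579 to 1769 CPM in Saline. Of 8 genes of conventional dendritic cells, 4 lay below 0, and their sum ran from 87.1 to 145 CPM in TLQP21 and from 109 to 144 CPM in Saline. Xcr1, a receptor of the dendritic cells that express Cd8a, was at 4.35 ± 0.283 CPM in TLQP21 and 3.59 ± 1.26 CPM in Saline. Irf8, a transcription factor of dendritic cells, differed by -0.34, and Itgae, which T cells share, by 0.23. Of 6 genes of plasmacytoid dendritic cells, 5 lay below 0, with -0.39 for the factor gene Spib and -0.11 for the surface receptor gene Siglech. Klk1 (-0.25) held 337 and 401 CPM of list sums averaging 438 CPM in TLQP21 and 502 CPM in Saline. It was highest in Saline 4, the library with the highest acinar share, at 828 CPM, so the sum is not a level of these cells. No gene of these 4 lists was at 0 in any library, and the part of these cells in the Cd4 and Cd8a levels was not tested.

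Gamma delta T cells carry the CD3 chains with a receptor that is not built from Trac or the Trbc genes. Of 7 tested genes of that list, 6 lay below 0 (49.4% of all genes) and 1, the scavenger receptor gene Cd163l1, was lower at an unadjusted p under 0.05 (2.26% of all genes). The list's sum ran from 27.5 to 38.6 CPM in TLQP21 and from 30.1 to 46.0 CPM in Saline. Most of that sum was the transcription factor gene Sox13, at 28.6 ± 5.12 CPM in TLQP21 and 25.6 ± 3.93 CPM in Saline (SD, n = 4 each). Sox13 differed in the other direction, by 0.16 on the log2 scale, so the sum is not a level of gamma delta T cells. The delta constant gene Trdc had 65 reads over the 4 TLQP21 libraries and 116 over the 4 Saline libraries (0.515 ± 0.287 and 1.04 ± 0.501 CPM). Cd163l1 was at 1.09, 0.691, 0.664 and 0.371 CPM in TLQP21, against 1.09, 0.770, 1.03 and 5.64 CPM in Saline, so that Saline 4 stood far above all other libraries, and the other 3 Saline libraries lay within the TLQP21 range. Of 7 tested natural killer genes, 4 lay below 0, with 1 lower at an unadjusted p under 0.05 (the receptor gene Klra7, -0.96), and the sum of that list ran from 8.45 to 12.5 CPM in TLQP21 and from 8.82 to 10.8 CPM in Saline. Of 6 thymocyte genes, 1 was tested, Cd1d1, which antigen-presenting cells also express, at 7.37 ± 1.68 CPM in TLQP21 and 12.2 ± 7.31 CPM in Saline (SD, n = 4 each), highest in Saline 2. The recombination and pre-receptor genes were near 0, with 4 and 1 reads of Rag1 and 6 and 0 reads of Ptcra, the pre-receptor alpha chain, over the 4 TLQP21 and the 4 Saline libraries. Of 8 B cell genes, 6 lay below 0, with -0.61 for the lineage factor gene Pax5, and their sum ran from 21.1 to 58.9 CPM in TLQP21 and from 39.0 to 62.6 CPM in Saline. Among lymph node genes, Glycam1 had 8 reads in TLQP21 and 19 in Saline, and Cxcl13, a chemokine of lymphoid follicles, was at 11.1 ± 10.5 and 16.4 ± 7.56 CPM. The part of these cells in the levels of the 10 genes was not tested.

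**Figure D5:**
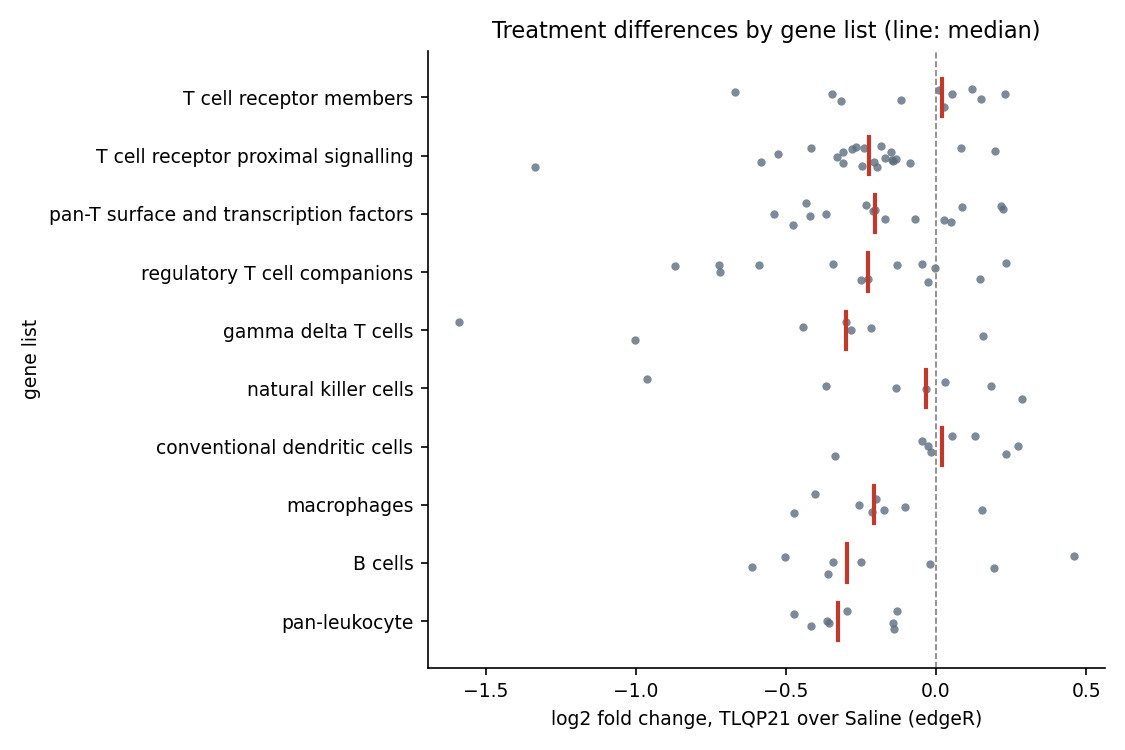
Log2 fold change of TLQP21 over Saline (x axis) of each tested gene (points) in 10 gene lists (rows), with the median as a line. The median of the 10 receptor and lineage genes is 0.02, and that of the pan-leukocyte genes -0.33.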

How the data were processed

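Whole tumours were profiled by RNA sequencing in 4 TLQP21 and 4 Saline libraries, prepared with a NEBNext Ultra kit and read from both ends over 150 bp, per the labels' protocols. The authors deposited 1 table of raw read counts per gene. The submitters' processing notes list GRCm38 (mm10) as the build, with the tools featureCounts (1.5.0-p3), HISAT2 (2.0.5) and DESeq2 (1.32.0). The strand setting and the handling of multiply matching reads are not given there.

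The test was edgeR's quasi-likelihood test (edgeR 4.0.16, R 4.3.3; default low-count filter, TMM scaling, no covariates), Benjamini-Hochberg adjusted over 18238 genes with a threshold of 0.05. It was also run on simulated counts, which were drawn for each gene independently, so variation shared between genes was not covered. Log2 fold changes are TLQP21 minus Saline. Ratios of counts used a pseudocount of 0.5 and exact two-sided permutation tests over 70 assignments. DESeq2 1.42.0 and limma 3.58.1 were run as alternatives, as were other scalings, filters, a replicate block and each library left out. No libraries were duplicates (lowest chi-square per degree of freedom 19.0).

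The members and lists were chosen with earlier results of these data known. The text names all members, the 5 (T cell lists) or up to 3 (other lists) genes of a list with the smallest unadjusted p, a few defining markers chosen after their values were seen, and the 5 genes nearest to each of 3 courses over the libraries. Ccl21a and Ccl19, on 2 rows each, were left out. The check of ductal genes, the Trbc1 levels by library totals and the lists along the sex-linked split were added after the data were seen. Promoters are from RefSeq (GRCm38.p6; 5 of 10 members matched), and exon overlaps and transcripts from GENCODE M21.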

Additional observations from a re-analysis of the deposited data

Results flagged for a closer look

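Trac in the TLQP21 group had a library far from the other 3, TLQP21 3 at 8.80 CPM, against 10.2 to 10.3 CPM in the others. Its gap to the nearest, divided by the group's range, was above the 95% critical value of Dixon's test for 4 samples (0.829). In all, 36 groups of 4 were looked at in this way, and chance flags about 1 in 20.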

How the results depend on the processing

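No member passed the threshold under any alternative. The count of genes called lower over the whole table was 4 in DESeq2 and 1 in limma's voom, against 0 in edgeR. The replicate numbers did not pair the libraries (correlations of deviations between equal numbers from -0.05 to 0.27, and 1 of 4 TLQP21 libraries correlated best with its own number), and with the replicate number as a block the log2 fold change was -0.63 for Cd4 and -0.0080 for Cd3d, the member whose sign turned. The block gave 0 calls over all genes, and an exact permutation p of 0.125 for Cd8a to Cd4, the smallest that 4 pairs can give. Cd3d also turned with the sex-linked split as a covariate (-0.0139). In limma's voom Cd3e (-0.0848) and Trbc2 (-0.0052) turned. The cause was not tested. Leaving out 1 library at a time gave ranges of -0.18 to 0.17 for Cd3d, -0.13 to 0.19 for Cd3e, -0.25 to 0.0496 for Cd3g, -0.13 to 0.16 for Trbc2, -0.82 to -0.43 for Cd4, -0.41 to -0.28 for Trbc1, 0.12 to 0.32 for Cd8a, 0.0397 to 0.35 for Cd8b1, 0.0171 to 0.21 for Trac and -0.51 to -0.0388 for Foxp3. For log2 ratios it gave 0.71 to 1.07 for Cd8a to Cd4 and -0.16 to 0.0193 for Cd8b1 to Cd8a, which turned without Saline 2. Its exact permutation p for Cd8a to Cd4 ran from 0.0286 to 0.0571. The number of members below 0 was 4, and 7 without Saline 4 or without TLQP21 1. Other scalings and low-count filters turned no member's sign. The groups of Trbc1 overlapped by library totals. Foxp3 had 37 to 106 reads per library, the lowest counts of the 10 genes.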
